A study of Homo sapiens with 10 samples.

Results

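Edited human embryonic stem cells, labelled V1PAKI d0, were compared with wild-type stem cells of the same day, labelled Ctrl d0, before a neural differentiation. The members of the comparison were all genes that reached 1 FPKM in V1PAKI d0 or in Ctrl d0, 13661 of the 42335 genes in the table. FPKM is a fragment count scaled by transcript length and by library total, so it sets levels side by side per length. A gene's difference was log2(FPKM + 1) in V1PAKI minus log2(FPKM + 1) in Ctrl, with a pseudocount of 1 that understates differences of genes with low values. The gene nearest above the limit had 1.00037 FPKM in its higher library, and the nearest below it had 0.999748 FPKM.

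Both lines were H9, an established and widely used human embryonic stem cell line. Per the labels, the genotype was SOX1-OT V1 PAKI in the edited cells and wild type in the control cells, and the day was 0 in both. The labels spell out neither PAKI nor how many clones the edited line holds. The edited and wild-type lines also gave 1 library each at 4 later stages, d4, d10, d16D and d16V. Those cells were grown as embryoid bodies and then in neural medium, and these 8 libraries served as a second reference. Both d16D and d16V are of day 16 and are counted below as separate stages. At d0 each line had 1 library, so its differences have no replicate check, no error and no test. Differences of at least 1 on the log2 scale are counted below as higher or lower calls.

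Pluripotent stem cells hold their state through a network of transcription factors that includes POU5F1, SOX2 and NANOG, together with signals of the FGF and NODAL pathways. They rely on glycolysis and make much of their serine and other amino acids, a programme that the transcription factor ATF4 raises when amino acids run short. Human embryonic stem cell cultures are known to gain or lose chromosome segments over passages, and the long arm of chromosome 17 is among those gained repeatedly, so the differences were also read along the chromosomes.

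The edited locus could not be checked at d0. SOX1-OT, the noncoding gene in the study's title, was listed at 0 FPKM in both libraries. SOX1, whose protein marks the early neural plate, had 0.0485 FPKM in V1PAKI against 0 in Ctrl. HDAC10, a histone deacetylase also named in the title, was at 1.98 FPKM in V1PAKI against 1.10 in Ctrl. Its difference of 0.50 was 0.06 once the trend with GC content and length described below was removed, and 0.59 with TPM.

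Both libraries carried the marks of pluripotent cells. POU5F1 was at 385 FPKM in V1PAKI against 326 in Ctrl, LIN28A at 342 and 332, and DPPA4 at 142 and 143 in the same order. NANOG, at 16.2 FPKM in V1PAKI against 16.4 in Ctrl, and SOX2, at 58.9 and 40.9, differed by -0.02 and 0.52 on the log2 scale. The defining markers PAX6 of neural progenitors, CDX2 and TFAP2A of trophoblast and surface ectoderm, SOX17 and GATA6 of endoderm, COL3A1, DCN and LUM of fibroblasts and PTPRC of blood cells were listed at 0 in both. Not all such markers were absent. The fibroblast collagens COL1A1, at 14.3 FPKM in V1PAKI against 7.64 in Ctrl, and COL1A2, at 11.02 and 12.15, the neural crest factor FOXD3, at 8.69 and 5.55, and the keratin KRT7, at 3.01 and 2.50, were measured. Of the fixed lists, 1 of 18 primitive streak and mesoderm genes, 2 of 18 endoderm genes, 3 of 19 trophoblast and amnion genes and 3 of 15 endothelium and blood genes reached 1 FPKM in either library, as did 11 of 20 mesenchyme and fibroblast, 6 of 12 neural crest and 9 of 24 neural progenitor genes. The summed levels of these 7 lists, in this order, were 31.8, 17.9, 6.85, 41.3, 154.8, 42.6 and 119.4 FPKM in V1PAKI and 30.6, 18.3, 7.59, 45.8, 122.6, 26.6 and 91.02 FPKM in Ctrl, and their part in the results was not tested. In such bulk RNA, fewer cells of a type and less RNA per cell cannot be told apart.

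Each d0 library stood apart from the other 9 in its own way. In V1PAKI d0, genes of the outer long arm of chromosome 17 lay 0.46 above the other libraries and those of outer 10q26 lay 0.88 below them, in log2 medians with the GC and length trend removed. In Ctrl d0, levels fell with the GC content of the transcript. The Spearman correlation across genes between GC content and a library's deviation from the mean of the other 9 was -0.416 in Ctrl d0, against -0.055 in V1PAKI d0. V1PAKI d10 had a still steeper tilt of -0.704, and the other 7 libraries lay between -0.0075 and 0.51. Ctrl d0 was also below 0.1 FPKM for 9 genes that had at least 1 FPKM in each of the other 9 libraries, while the other libraries had 0 to 2 such genes. All results below rest on these 2 libraries, and values without the 2 chromosome regions or without the trend are given beside many of them.

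Of the 13661 genes, 509 were higher in V1PAKI (3.73%) and 112 were lower (0.82%), and 4.55% differed in either direction. The median difference of all genes was 0.11, the middle 50% of genes lay between -0.12 and 0.38, and the SD across genes was 0.46. Without the GC and length trend 211 genes were higher (1.54%) and 186 lower (1.36%), so the share of higher calls went down to 53.1% of the calls, against 82.0% as deposited. With TPM there were 728 higher and 319 lower genes, and with median-of-ratios scaling 377 and 146. These scalings shifted the median of all genes by -0.13 and -0.10. Just inside the limit of 1 lay C17orf53, at 6.64 FPKM in V1PAKI against 2.82 in Ctrl, and FAR2P3, at 0.0145 and 1.03. Just outside it lay NOL12, at 5.34 FPKM in V1PAKI against 2.17 in Ctrl, and PIGY, at 0.175 and 1.35.

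**Figure D1:**
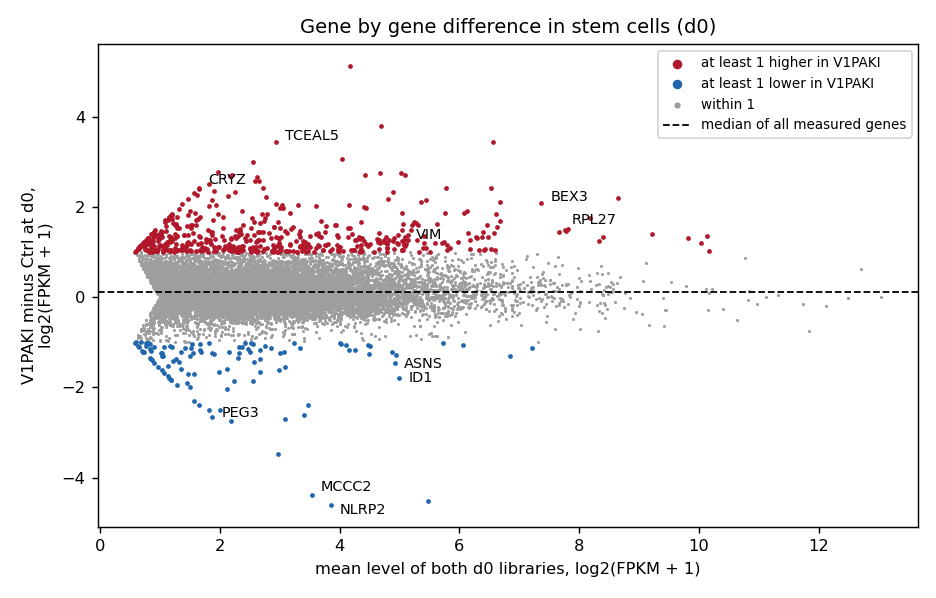
Each point is a measured gene of the d0 comparison, with the mean level of both libraries on the horizontal axis, in log2(FPKM + 1), and V1PAKI minus Ctrl on the vertical axis. Red points (509) are at least 1 higher and blue points (112) at least 1 lower in V1PAKI, and the dashed line marks the median of all genes at 0.11; XIST and genes of the Y chromosome are not drawn.

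The middle of the distribution followed transcript composition. Across 13412 genes with known GC content and length (98.2%), the Spearman correlation of the d0 difference was 0.47 with GC content and -0.273 with transcript length. The median difference went from -0.12 in the lowest of 10 GC classes to 0.46 in the highest, and from 0.33 in the shortest of 10 length classes to -0.04 in the longest. Genes called higher had a median GC content of 57.0% and a median length of 1247 bases, those called lower 46.3% and 2114 bases, and all measured genes 48.6% and 3359 bases. The d10 pair had a tilt of the opposite sign, with a correlation of -0.727 with GC content. The trend's part in any single difference at d0 was not tested, but 207 of the 509 higher calls and 105 of the 112 lower calls were past 1 without it.

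**Figure D2:**
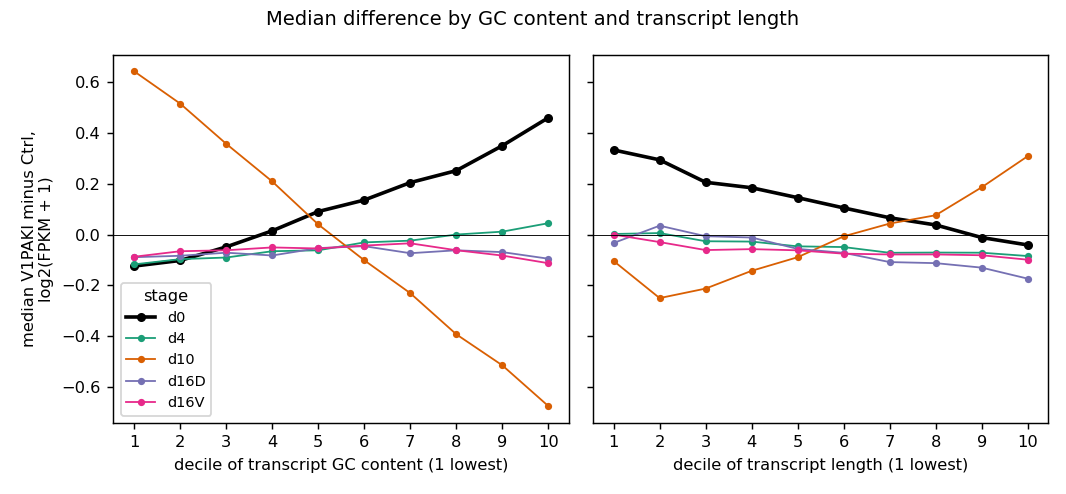
Median V1PAKI minus Ctrl difference in log2(FPKM + 1) by 10 classes of transcript GC content (left) and length (right), with 1 line for each stage. The d0 line climbs from -0.12 to 0.46 over GC content and goes down from 0.33 to -0.04 over length, and the d10 line runs the opposite way.

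Several of the genes lowest in the edited stem cells were near silent in V1PAKI and active in Ctrl. NLRP2, a gene of oocytes and early embryos whose protein has been linked to genomic imprinting, was the lowest protein-coding gene. It shares exon bases on its strand with AC011476.1 and was at 0.143 FPKM in V1PAKI against 26.8 in Ctrl (187-fold lower, -4.60 on the log2 scale). MCCC2, a subunit of a mitochondrial carboxylase that breaks down leucine, was at 0.0705 FPKM in V1PAKI against 21.2 in Ctrl. SYT11, a synaptotagmin of vesicle traffic, was at 0.133 FPKM in V1PAKI against 3.52 in Ctrl, and SLC38A4, an amino acid transporter, at 1.54 and 8.17. CEBPZOS, a small gene beside CEBPZ, was at 0.286 FPKM in V1PAKI against 13.4 in Ctrl. At d4, d10, d16D and d16V CEBPZOS was low in Ctrl too, at 0.785, 0.138, 0.231 and 0.0694 FPKM. V1PAKI had 0.922, 0.0927, 0.105 and 0.0917 FPKM there, so it was Ctrl d0 that stood apart at this gene. The other members of the lowest 12 protein-coding genes were PEG3, TOMM6, PTP4A1, AL136295.4, AL022238.4, HSPE1-MOB4 and CORO7-PAM16, which also share exons on their strand with another gene, so their estimates are uncertain. TOMM6 shows this, at 2.75 FPKM in V1PAKI against 84.5 in Ctrl, while AL365205.1, which overlaps it, stood at 18.7 and 3.83.

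At 4 genes the d0 difference was found again at every later stage. NLRP2, ZNF558, ZNF542P and ZNF619 were lower by at least 1 in all 5 pairs, and no gene was higher by at least 1 in all 5. ZNF558 and ZNF542P, both of chromosome 19 and of the zinc finger class, had a listed value of 0 in every V1PAKI library. ZNF558 had 2.38, 2.28, 1.96, 3.81 and 3.36 FPKM in Ctrl at d0, d4, d10, d16D and d16V, and ZNF542P, a pseudogene, had 3.91, 2.32, 2.84, 2.46 and 1.89. NLRP2 was at 0.143, 0.200, 0.00536, 0.0340 and 0 FPKM in V1PAKI and at 26.8, 14.7, 10.8, 2.92 and 3.26 in Ctrl over the same stages. ZNF619 on chromosome 3 lay between 0.0221 and 0.184 FPKM in V1PAKI and between 1.75 and 2.26 in Ctrl. The lines did not overlap at any of these 4 genes, which largely follows from how they were chosen. The share of all genes without overlap is not given here. ASTE1, outside the 4, did not overlap either, at 0.129 FPKM or less in V1PAKI and 0.563 or more in Ctrl. In limma over the 8 later libraries, which the d0 comparison did not use, 0 of 15447 genes passed an adjusted p of 0.05 in either direction (0.0% higher and 0.0% lower). At an unadjusted limma p below 0.05, 127 genes had a positive and 415 a negative difference. Some of 15447 genes pass that level by chance. With median-of-ratios scaling these counts were 180 and 267. The median difference of all genes was itself -0.05, -0.04, -0.10 and -0.07 at d4, d10, d16D and d16V. The later differences by limma were -1.75 (SE 0.15, adjusted p = 0.056) for ZNF542P, -1.92 (SE 0.18, adjusted p = 0.068) for ZNF558, -1.50 (SE 0.14, adjusted p = 0.074) for ZNF619 and -2.82 (SE 0.34, adjusted p = 0.23) for NLRP2. These genes were chosen for being low at all 5 stages, so the later values describe that choice.

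SYT11 was lower in V1PAKI at all 5 stages, by 2.00 at d0 and by 1.93, 0.99, 2.24 and 1.24 later (limma, -1.60, SE 0.23, adjusted p = 0.51). MCCC2 was lower by 2.16 at d4 and 1.28 at d10, and at d16D and d16V its differences were 0.01 and -0.38, where Ctrl itself had 0.289 and 0.650 FPKM. SLC38A4 had later differences between -0.38 and -0.14, with Ctrl at or below 1.08 FPKM.

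Other genes were missing from the wild-type library alone. CRYZ, which encodes a quinone reductase, was at 4.30 FPKM in V1PAKI d0 and listed at 0 in Ctrl d0, and between 2.13 and 4.59 FPKM in the 9 libraries other than Ctrl d0. TYW3, an enzyme of transfer RNA modification, was at 3.54 FPKM in V1PAKI d0 and listed at 0 in Ctrl d0. The 5′ ends of these genes overlap head to head on chromosome 1, CRYZ on the minus strand at chr1:74705482-74733408 and TYW3 on the plus strand at chr1:74733152-74766678 (GRCh38). DNAJC15, a mitochondrial co-chaperone on chromosome 13, was at 2.56 FPKM in V1PAKI d0 and 0 in Ctrl d0, and PUS7L, a pseudouridine synthase of chromosome 12, at 2.97 and 0.0249. The reverse held for PEG3, a paternally expressed imprinted gene on chromosome 19, at 0 FPKM in V1PAKI d0 and 5.33 in Ctrl d0, and at most 0.0152 in the 9 libraries other than Ctrl d0. ZIM2, which shares exons with PEG3, was at 0 and 0.217 FPKM. At these genes it was Ctrl d0 that differed from the later Ctrl libraries.

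For 2 genes silent in the edited line and 2 missing from Ctrl d0, the 250 bases before the RefSeq start of transcription (GRCh38.p14) are shown 5′ to 3′ on the gene's strand, to set the kinds of promoter side by side. Capitals mark CG, the pair at which DNA methylation acts, which reads the same on both strands. They lie at chr19:54965034-54965283 (plus strand, NLRP2), chr19:8832305-8832554 (minus, ZNF558), chr1:74733051-74733300 (minus, CRYZ) and chr13:43023336-43023585 (plus, DNAJC15). NLRP2 and ZNF558 have 2 RefSeq starts each, and the start nearest the gene's annotated 5′ end was taken. By the GENCODE positions the 5′ ends of CRYZ and DNAJC15 lie further out, at 74733408 and 43023203. Their stretches therefore fall inside these genes as annotated there, and that of CRYZ also runs over the start of TYW3.
NLRP2: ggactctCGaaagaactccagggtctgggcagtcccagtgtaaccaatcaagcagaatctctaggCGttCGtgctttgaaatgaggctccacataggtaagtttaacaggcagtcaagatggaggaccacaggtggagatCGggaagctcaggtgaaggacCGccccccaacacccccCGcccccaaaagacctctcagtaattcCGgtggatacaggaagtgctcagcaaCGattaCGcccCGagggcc
ZNF558: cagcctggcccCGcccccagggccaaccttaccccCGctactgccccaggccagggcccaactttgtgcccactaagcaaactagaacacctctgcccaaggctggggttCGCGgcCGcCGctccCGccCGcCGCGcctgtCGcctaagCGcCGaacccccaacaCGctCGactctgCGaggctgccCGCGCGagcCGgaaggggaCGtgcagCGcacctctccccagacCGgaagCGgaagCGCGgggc
CRYZ: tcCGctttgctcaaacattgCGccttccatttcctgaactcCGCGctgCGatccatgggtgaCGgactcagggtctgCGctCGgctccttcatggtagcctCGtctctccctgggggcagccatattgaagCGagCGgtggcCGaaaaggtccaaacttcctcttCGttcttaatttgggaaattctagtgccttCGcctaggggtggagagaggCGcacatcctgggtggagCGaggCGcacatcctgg
DNAJC15: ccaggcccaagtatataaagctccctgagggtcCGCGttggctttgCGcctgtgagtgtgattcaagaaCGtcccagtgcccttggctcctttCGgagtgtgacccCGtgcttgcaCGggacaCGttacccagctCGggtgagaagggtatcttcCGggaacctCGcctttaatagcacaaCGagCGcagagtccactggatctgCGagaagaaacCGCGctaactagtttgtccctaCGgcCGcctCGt
The stretch held 10 CG pairs at NLRP2, 26 at ZNF558, 17 at CRYZ and 19 at DNAJC15. As many or more were found in 52.2%, 19.6%, 39.0% and 34.6% of 35116 promoters of the same length, in that order, and the median promoter had 11. DNA methylation was not measured in these libraries.

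Among the 12 highest protein-coding genes, 7 share exons on their strand with another gene, and most of these are read-through transcripts such as BLOC1S5-TXNDC5, TMEM189-UBE2V1 and SYS1-DBNDD2. BLOC1S5-TXNDC5 was at 33.9 FPKM in V1PAKI against 0 in Ctrl at d0, and was lower in V1PAKI by 2.54 at d10 and 3.46 at d16D, so its sign changed between stages. HIST1H4J and HIST1H4K, near-identical histone H4 genes among which reads can be split, were at 9.60 and 9.77 FPKM in V1PAKI and at 0.677 and 0.804 in Ctrl. The 3 left were SCGB3A2, TCEAL5 and NDUFA1. SCGB3A2, a small secreted protein best known from airways, was at 28.4 FPKM in V1PAKI against 2.51 in Ctrl, and stood at 51.4 and 29.8 at d4. TCEAL5, a gene of the TCEAL family on the X chromosome, was at 13.02 FPKM in V1PAKI against 0.294 in Ctrl, and NDUFA1, a small subunit of respiratory complex I, at 56.0 and 7.51. For NDUFA1 the low values were those of Ctrl d0 and V1PAKI d10, at 7.51 and 12.5 FPKM, and the other 8 libraries lay between 44.9 and 64.7.

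Most genes of the pluripotency network were within the limit of 1. Of 25 measured core pluripotency genes of 26 listed, 10 were above 0 and 15 below, 1 was called higher and 0 lower, and their median was -0.02, against 0.11 for all genes. The shares called over all genes were 3.73% higher and 0.82% lower. LNCPRESS1, a noncoding RNA of pluripotent cells, was at 34.0 FPKM in V1PAKI against 13.3 in Ctrl (1.29, or 1.00 without the trend). The lowest members were PRDM14, a repressor that guards the pluripotent state, at 14.0 FPKM in V1PAKI against 25.0 in Ctrl, DNMT3B, a DNA methyltransferase, at 237 and 400, and TDGF1, a NODAL co-receptor, at 146 and 239. Their differences were -0.79, -0.76 and -0.71, or -1.04, -0.96 and -0.77 without the trend, so that PRDM14 was then called lower. The 16 primed state genes had a median of 0.09 with no call as deposited and 1 lower call with TPM or without the trend, and the 18 measured genes of the NODAL and TGF beta list a median of 0.01, both below 0 with TPM, with median-of-ratios scaling or without the trend, with TGFB1 as the one call, at 5.15 FPKM in V1PAKI against 2.05 in Ctrl (1.01, or 0.57 without the trend).

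ATF4 targets had the lowest median among the 27 lists with at least 8 measured members. Of 19 measured members of 20, 18 were below 0, 3 were called lower and 0 higher, and the median was -0.49. Of all 13661 genes 8492 were above 0, 0.82% were called lower and 3.73% higher, and the median was 0.11. ASNS, which makes asparagine, was at 15.2 FPKM in V1PAKI against 43.7 in Ctrl (-1.46). SLC7A11, the cystine transporter, was at 2.58 and 8.19 (-1.36), and SLC7A5, a transporter of large neutral amino acids, at 42.3 and 89.7 (-1.07), V1PAKI first in both. The serine pathway enzymes PSAT1, at 106 FPKM in V1PAKI against 211 in Ctrl, and PHGDH, at 32.5 and 57.3, differed by -0.99 and -0.80. ATF4 itself was at 101 FPKM in V1PAKI against 106 in Ctrl. Without the GC and length trend the median was -0.75, all 19 lay below 0 and 6 were called lower. The medians at d4, d10, d16D and d16V were -0.45, -0.76, 0.46 and -0.32, so the direction turned at d16D. None of the measured members lies in the 2 chromosome regions described below.

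Glycolysis and hypoxia genes lay on the other side. Of 25 measured members of 27, 22 were above 0, with a median of 0.40, or 0.22 without the trend, and 0 were called higher. Over all genes 8492 of 13661 were above 0, with a median of 0.11. SLC2A1, the glucose transporter, was at 115 FPKM in V1PAKI against 71.8 in Ctrl, LDHA, which turns pyruvate into lactate, at 95.3 and 62.2, and PGK1, a kinase of glycolysis, at 122 and 87.0. Members of higher level differed less. GAPDH was at 1185 FPKM in V1PAKI against 1047 in Ctrl (0.18, or -0.18 without the trend). ENO1 was at 395 and 338 (0.22, or -0.03 without the trend). ADM, a peptide hormone induced by low oxygen, went against the list, at 10.2 FPKM in V1PAKI against 22.3 in Ctrl (-1.05). With TPM 18 of the 25 were above 0. Later medians were 0.03 at d4, -0.57 at d10, 0.58 at d16D and 0.06 at d16V.

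In signalling lists single genes stood out rather than whole groups. ID1, a direct target of BMP signalling, was at 13.3 FPKM in V1PAKI against 48.5 in Ctrl (-1.79), and ID2 at 4.81 and 8.40, while ID3 was at 42.98 and 33.94. NOG, which binds and blocks BMP ligands, was at 1.29 FPKM in V1PAKI against 0.109 in Ctrl (1.05, or 0.69 without the trend). NOG lies on 17q beyond 40 Mb, as does NGFR, a neurotrophin receptor of the neural crest, at 9.26 FPKM in V1PAKI against 2.17 in Ctrl (1.69). DLL3, an inhibitory Notch ligand, was at 10.9 FPKM in V1PAKI against 3.13 in Ctrl (1.53, or 1.08 without the trend). FGFR2, a receptor of the FGF pathway, was at 5.39 FPKM in V1PAKI against 12.9 in Ctrl and lies in outer 10q26, whereas FGFR1 stood at 43.7 and 32.1. Of the 8 BMP genes measured 1 was called higher and 1 lower, and of the 20 FGF and MAP kinase targets 0 and 1. Over all genes 3.73% were called higher and 0.82% lower.

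Some genes of later lineages were called at d0 although their lists were not. Of 13 measured neuron genes 2 were called higher and 1 lower, with a median of 0.25, beside 3.73% higher, 0.82% lower and a median of 0.11 over all genes. STMN2, a tubulin-binding protein of neurons, was at 7.14 FPKM in V1PAKI against 1.18 in Ctrl (1.90), CHGA, a protein of secretory granules, at 16.8 and 7.63 (1.04), and SYT11 was the gene called lower. Of 11 mesenchyme and fibroblast genes, with a median of 0.01, or -0.14 with TPM, 2 were called higher, VIM, an intermediate filament protein, at 47.2 FPKM in V1PAKI against 20.3 in Ctrl, and LGALS1, a galectin, at 6.74 and 2.64. NNAT, an imprinted gene of neural tissue, was at 27.7 FPKM in V1PAKI against 10.4 in Ctrl (1.32, or 0.99 without the trend). CHGA and LGALS1 were within the limit of 1 without the trend. VIM and STMN2 were past 1 with TPM, with median-of-ratios scaling and without the trend.

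Stress genes were uneven. Of 18 heat shock and ER chaperone genes 3 were called higher, beside 3.73% of all genes. HSPB1, a small heat shock protein, was at 52.7 FPKM in V1PAKI against 18.1 in Ctrl (1.49), HSPE1, a mitochondrial chaperonin that overlaps the read-through gene HSPE1-MOB4, at 123 and 44.3 (1.46), and HSPA1A at 12.1 and 5.54 (1.00). HSPA5, the main chaperone of the endoplasmic reticulum, was at 179 and 191 FPKM. Only HSPE1 was past 1 without the trend. Of 17 p53 response genes FDXR, a ferredoxin reductase on 17q beyond 40 Mb, was the one call, at 13.95 FPKM in V1PAKI against 5.42 in Ctrl (1.22, or 0.77 without the trend). Of 26 cell cycle genes the one call was MKI67, the proliferation marker, at 9.72 FPKM in V1PAKI against 20.9 in Ctrl, which lies in outer 10q26. Over all genes 0.82% were called lower. The median of the cell cycle genes was 0.21, or 0.06 with TPM and -0.07 without the trend.

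**Figure D3:**
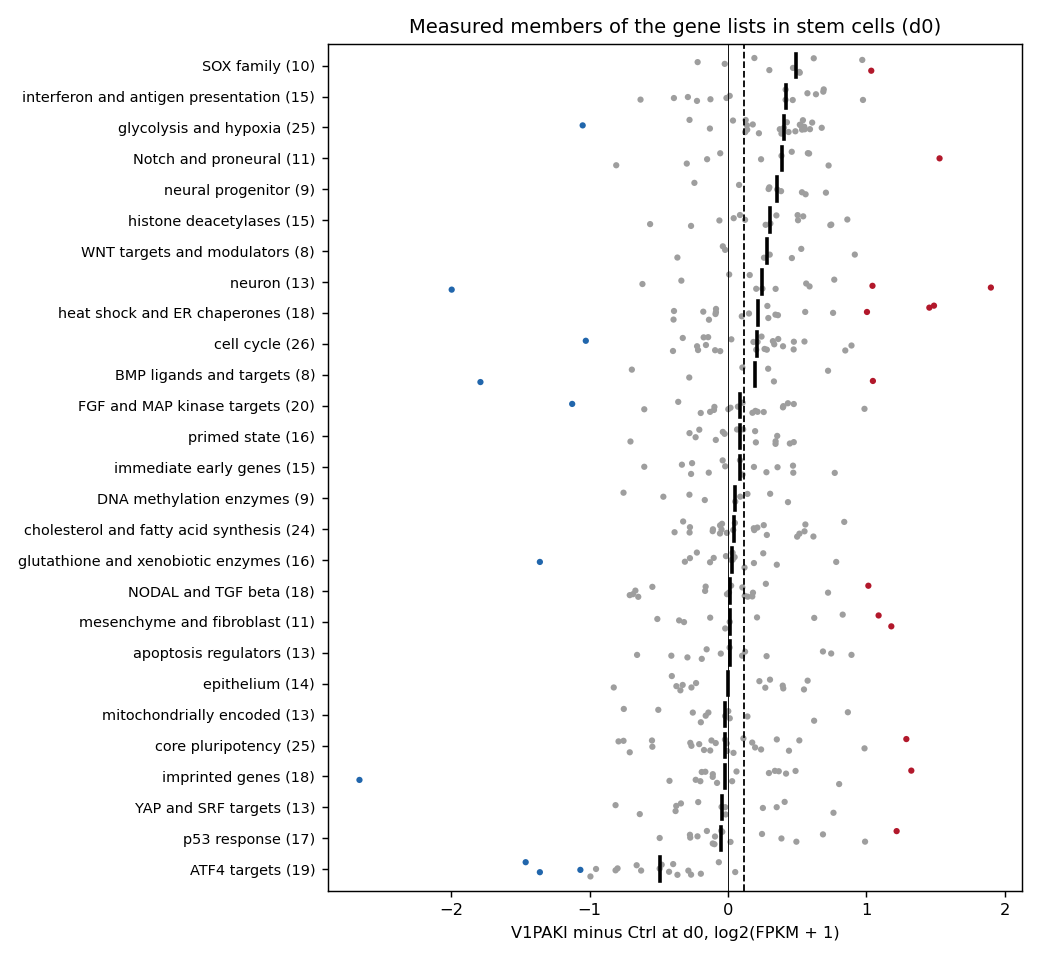
Each point is a measured member of a fixed gene list (27 lists with at least 8 measured members, number in brackets), placed by V1PAKI minus Ctrl at d0 in log2(FPKM + 1). Thick bars are list medians, the dashed line is the median of all genes at 0.11, and red and blue mark members at least 1 higher or lower; the ATF4 targets have the lowest median, at -0.49.

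Position along the chromosomes separated 2 regions from the rest. On the long arm of chromosome 17, 618 measured genes had a median difference of 0.60, with 81 higher and 6 lower calls. From 40 Mb outward, a limit set after the values were seen, 477 genes had a median of 0.67, or 0.47 without the GC and length trend, and 94.8% of them lay above the median of all genes. The 141 genes of 17q before 40 Mb had a median of 0.18 and the 264 genes of 17p one of 0.23, or 0.05 and 0.00 without the trend. In outer 10q26, from 120 Mb, also set after the values were seen, 53 genes had a median of -0.79, or -0.87 without the trend, and 86.8% lay below the median of all genes. The 17 genes of 10q26 before 120 Mb had a median of 0.01 and the 323 genes of 10q before 10q26 one of 0.03. Of 228 windows of 10 Mb over the autosomes, the 5 of outer 17q had medians between 0.41 and 0.54 without the trend, the 2 of outer 10q26 stood at -0.92 and -0.83, and the other 221 lay between -0.18 and 0.15.

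Gene by gene the change along 10q26 was abrupt. SEC23IP, a gene of vesicle transport at chr10:119892711-119944658, was at 12.9 FPKM in V1PAKI against 12.4 in Ctrl, and MCMBP, beside it, was at 20.9 and 21.4. On that side BAG3 and RGS10 differed by 0.61 and 0.53, and TIAL1, INPP5F and PRDX3 by 0.00, 0.01 and 0.05. WDR11, the next measured protein-coding gene outward, at chr10:120851175-120909524, was at 3.72 FPKM in V1PAKI against 7.81 in Ctrl. From there outward OAT, an enzyme of ornithine metabolism, was at 13.6 FPKM in V1PAKI against 29.8 in Ctrl, BUB3, a spindle checkpoint protein, at 13.3 and 26.6, CTBP2, a corepressor, at 9.68 and 20.4, and GLRX3, a glutaredoxin, at 9.89 and 23.7. NKX1-2, a homeobox gene, was lower still, at 3.35 FPKM in V1PAKI against 11.6 in Ctrl. For 28 genes there, either library had at least 5 FPKM. Without a pseudocount their levels were in the median 0.434 of those in Ctrl relative to all genes, or 0.457 without the trend. Some of them, such as WDR11, passed that filter through Ctrl alone, which can pull this median down. The 8 genes above 0 in this stretch were RPL21P16, CPXM2, AL731571.1, BNIP3, AL162274.2, STK32C, UTF1 and AL360181.2. Of these UTF1, a transcription factor of pluripotent cells, was at 6.44 FPKM in V1PAKI against 2.76 in Ctrl.

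On 17q the medians rose in steps, and where among the genes the change begins was not tested. Medians in windows of 2 Mb were 0.08 from 36 to 38 Mb, 0.39 from 38 to 40 Mb and 0.73 from 40 to 42 Mb. LASP1, an actin-binding protein gene in the middle window, was at 28.2 FPKM in V1PAKI against 18.98 in Ctrl, ERBB2, a growth factor receptor, at 67.1 and 42.1, and PSMD3, a proteasome subunit, at 60.2 and 23.0. Further out RPL27 was at 321 FPKM in V1PAKI against 116 in Ctrl, ACLY, which makes acetyl-CoA for lipid synthesis, at 176 and 97.8, BIRC5, an inhibitor of apoptosis, at 59.8 and 31.7, and ACTG1, cytoplasmic actin, at 1273 and 1120. From 40 Mb outward, 294 genes had at least 5 FPKM in either library. Without a pseudocount their levels were in the median 1.58 times those in Ctrl relative to all genes, or 1.49 times without the trend. Some of them passed that filter through V1PAKI alone, which can pull this median up.

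**Figure D4:**
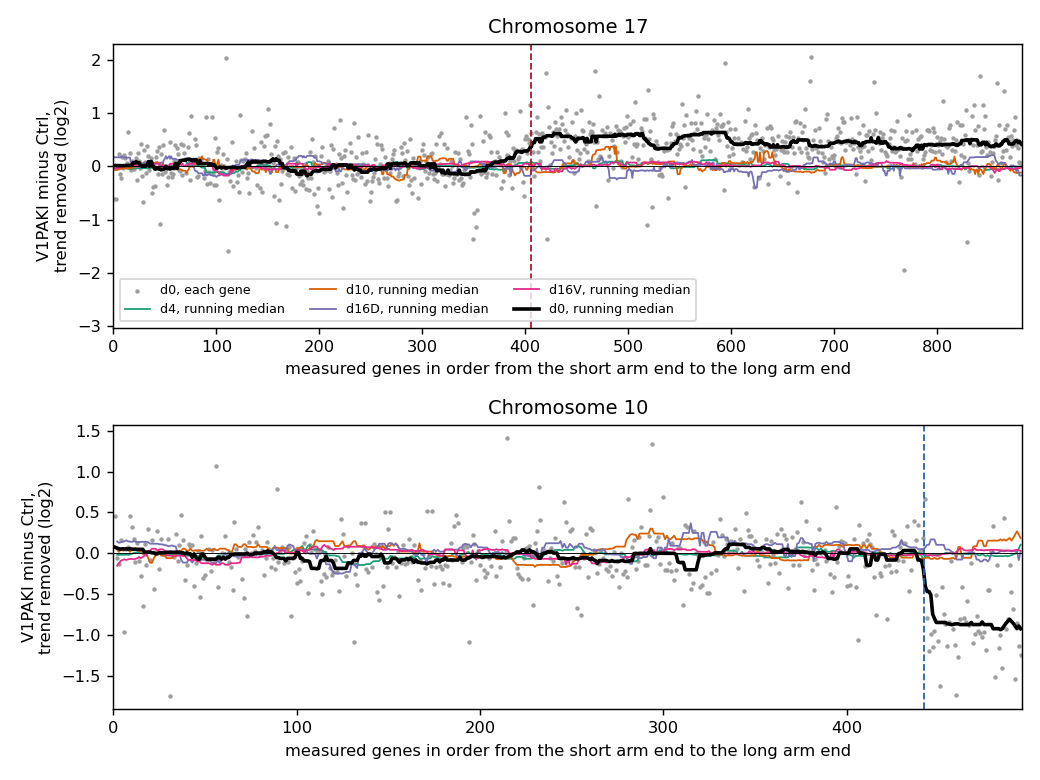
Measured genes of chromosomes 17 (top) and 10 (bottom) in order along the chromosome, with V1PAKI minus Ctrl on the log2 scale after removal of the GC and length trend. Grey points are genes at d0, the black line is their running median over 25 genes, thin lines are running medians of the later stages, and dashed lines mark 40 Mb on 17q and 120 Mb on 10q; the genes beyond them have a median of 0.47 on 17q and -0.87 on 10q at d0, while the later lines scatter around 0.

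Neither region stood apart in the later libraries. Medians of outer 17q relative to all genes were 0.55 at d0 and 0.03, -0.22, -0.01 and 0.01 at d4, d10, d16D and d16V, and those of outer 10q26 were -0.90 at d0 and -0.04, -0.00, 0.00 and 0.01 later. Without the trend each later value of outer 17q rounded to 0.00. Against the other 9 libraries, V1PAKI d0 stood at 0.46 for outer 17q, where the rest lay between -0.11 and -0.01, and at -0.88 for outer 10q26, where the rest lay between -0.00 and 0.12. Outer 17q held 76 of the 509 higher calls (14.9%, with 3.49% of measured genes) and 3 of the 112 lower calls. Outer 10q26 held 12 of the lower calls (10.7%, with 0.388% of genes) and 0 of the higher ones. Without both regions 433 genes were higher and 97 lower. DNA copy number was not analysed here, and its part in these differences was not tested.

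**Figure D5:**
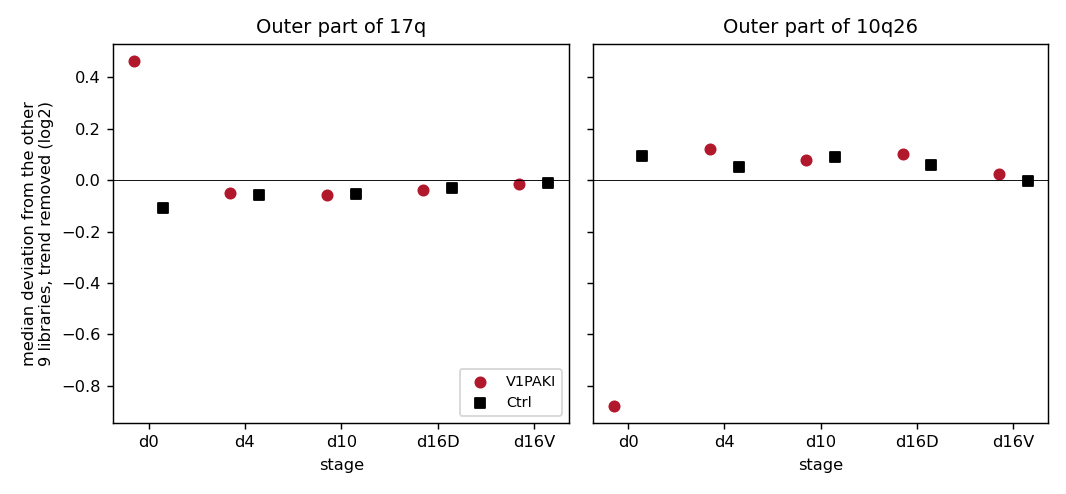
Median deviation of each library from the mean of the other 9, on the log2 scale after removal of the GC and length trend, for genes of outer 17q (left) and outer 10q26 (right). V1PAKI libraries are red circles left of the Ctrl libraries, black squares; V1PAKI d0 stands at 0.46 and -0.88 and all others lie between -0.11 and 0.12.

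Few of the d0 calls were found at later stages. Over the genes measured at each stage, V1PAKI was higher by at least 1 for 0.797% at d4, 3.78% at d10, 5.5% at d16D and 0.412% at d16V, and lower for 0.857%, 7.45%, 3.46% and 2.49%, or 1.65%, 11.2%, 8.96% and 2.9% in either direction. Of the 509 genes higher at d0, 19 were also higher at d4, 14 at d10, 30 at d16D and 9 at d16V, and 0 at all 4. Over all genes of the d0 comparison the shares higher at these stages were 0.476%, 3.43%, 3.29% and 0.242%, against 3.73%, 2.75%, 5.89% and 1.77% among the 509. At d10, 171 of the 509 were lower (33.6%), against 5.61% of all genes, and 50 of 211 (23.7%) without the GC and length trend. Of the 112 genes lower at d0, 20 were also lower at d4, 18 at d10, 12 at d16D and 14 at d16V (17.9%, 16.1%, 10.7% and 12.5%), against 0.52%, 5.61%, 2.28% and 1.4% of all genes. Pearson correlations of the d0 difference with the later ones, across 13661 genes, were 0.252 at d4, -0.394 at d10, 0.00204 at d16D and 0.0978 at d16V, or 0.198, -0.171, -0.02 and 0.116 without the trend, and genes are not independent replicates. In limma over all 10 libraries the d0 difference was set against the mean later difference. It departed at an adjusted p of 0.05 for 0 of 15779 genes (0.0% above and 0.0% below). That contrast rests on 1 library per line at d0.

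The d0 calls drew on both libraries. Among the 509 higher genes V1PAKI d0 was the highest of the 10 libraries for 198 (38.9%, against 17.8% of all measured genes), and Ctrl d0 was the lowest for 256 (50.3%, against 17.3%). Among the 112 lower genes V1PAKI d0 was the lowest library for 28 (25.0%, against 4.9%) and Ctrl d0 the highest for 55 (49.1%, against 12.4%). These shares use the values that made the calls and are a description only.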

How the data were processed

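Total RNA of H9 cells was isolated by Trizol, and TruSeq RNA libraries were sequenced (per the labels). For 42335 gene symbols the deposited values are FPKM, as the authors computed them. The submitters' processing notes name GRCh38 as build, and as tools Cufflinks, HISAT2 2.1.0 and cutadapt 1.18. Which annotation was counted, and whether strand was used, is not given in the sources used here. Counts were not available here, so depth is unknown and no counting interval is given. FPKM summed to 256270 in V1PAKI d0 and 229619 in Ctrl d0 (200509 to 256270 over the 10 libraries), and a value of 0 can be a failed estimate.

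GENCODE release 29 (GRCh38) gave position, GC content, length and same-strand exon overlap for 39904 symbols matched by name. The GC and length trend was removed by subtracting the median of each cell of 10 GC by 10 length classes. limma 3.58.1 in R 4.3.3 (stage as a block, intensity trend, a floor of 1 FPKM reached in 2 or more libraries, Benjamini-Hochberg adjustment, two-sided) was tested on simulated data. That simulation gave all genes the same small noise and no line difference particular to a stage. The line differences here had SDs across genes from 0.32 at d4 to 0.66 at d10, so the simulation does not show what limma would find in these data. With 1 library per line and stage, the limma p-values measure the spread between stages, not between cultures. Tables were made with Python 3.11.15 and pandas 2.3.3.

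Members and the 36 gene lists (634 genes, 428 of them measured) were chosen with earlier results of these data known. Named genes were the 3 of the title, the 12 highest and 12 lowest protein-coding genes, list members past 1 with the 3 highest in level, genes past 1 at all 5 stages, and the 6 highest in level of 17q and 10q26. XIST and genes of the Y chromosome were left out of the names. Genes of 1 library, along the region borders and of named families were chosen after their values were seen. Alternatives were another pseudocount, other filters, TPM, median-of-ratios scaling and removal of the trend.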

Additional observations from a re-analysis of the deposited data

Results flagged for a closer look

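Among the named genes past 1 at d0 (the 12 highest, the 12 lowest and called list members), 4 had a d0 difference of one sign and later differences all of the other sign. These 4 were picked by those signs, so their values and the limma contrast below describe that choice. The share of all genes with this pattern is not given here. VIM was higher in V1PAKI at d0 by 1.18 and lower by 0.32, 0.72, 0.39 and 0.45 at d4, d10, d16D and d16V. STMN2 was higher at d0 by 1.90 and lower by 0.18, 0.60, 1.11 and 0.32 later. NOG was higher at d0 by 1.05 and lower by 0.08, 0.64, 0.42 and 1.68 later. The read-through gene SYS1-DBNDD2 was higher at d0 by 3.002 and lower by 0.15, 0.51, 0.45 and 0.05 later, and shares its exons with SYS1 and DBNDD2. In limma over all 10 libraries the d0 difference minus the mean later difference was 1.65 for VIM, 2.45 for STMN2, 1.75 for NOG (adjusted p = 0.81 for each) and 3.29 for SYS1-DBNDD2 (adjusted p = 0.50), so none passed the threshold.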

How the results depend on the processing

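No difference past 1 and no median of 17q or 10q26 changed sign under the alternatives run. Of 1382 values recomputed for 182 named genes, 1273 moved by at most 1 SD of the gene's 4 later differences and 109 by more. With a pseudocount of 0.1, 1127 genes were higher and 270 lower. With at least 5 FPKM the counts were 312 and 53, with TPM 319 were lower, without the GC and length trend 211 were higher and 186 lower, and without same-strand overlap 68 were lower. The median of 17q minus that of all genes was 0.58 with a pseudocount of 0.1 and 0.17 without a filter, where most genes lie near 0, and that of 17q from 40 Mb was 0.69 and 0.28. For 10q26 it was -0.92 with a pseudocount of 0.1, -0.93 with at least 5 FPKM, -0.11 without a filter, -0.89 with TPM, -0.78 without the trend and -0.72 without same-strand overlap. From 120 Mb it was -1.13, -1.04, -0.15, -1.08 and -0.87 under the first 5 of these. In limma over the later stages 5 genes were lower with a pseudocount of 0.1, with TPM or without the block for stage, 3 with all 5 stages, and 0 to 1 when a stage was left out (1 without d4), against 0 as reported. The limma fit over the later stages pairs the lines by stage, its block. No paired analysis was possible at d0, because each line has 1 library there and the labels give no replicate numbers. Unknown depth limits what can be said of low genes.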

Other observations

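A cluster of small genes on the X chromosome was higher in V1PAKI d0 than in Ctrl d0. The BEX and TCEAL families, short intracellular proteins of which several have been linked to neurotrophin signalling and transcription elongation, lie together on Xq between 102125688 and 103630953 (GRCh38). They were grouped here after their values were seen. Of 13 measured members of 14, 11 were higher in V1PAKI by at least 1, with a median difference of 1.30, or 1.05 with 7 such members without the GC and length trend. The shares of all genes called higher were 3.73%, and 1.54% without the trend. BEX3 was at 267 FPKM in V1PAKI against 62.5 in Ctrl, TCEAL8 at 111 and 42.95, BEX4 at 44.5 and 16.6, and TCEAL9 at 35.7 and 12.8. The 8 other measured genes between them had a median of 0.30 with no call, and Xq without the families a median of 0.10. Later medians of the families were 0.33 at d4, 0.17 at d10, 0.43 at d16D and 0.34 at d16V. For BEX3, Ctrl d0 was the lowest of the 10 libraries, and the other 9, V1PAKI d0 among them, lay between 130 and 280 FPKM. The place of Ctrl d0 among the libraries is not given here for the other members.

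Nuclear genes for subunits of respiratory complex I (names starting NDUF, also grouped after their values were seen) leaned the same way. Of 37 measured, 35 were above 0 and 10 were called higher, with a median of 0.64, or 0.40 and 6 calls without the trend. Of all 13661 genes 8492 were above 0, and the shares called higher were the 3.73% and 1.54% given above. NDUFA13 was at 32.8 FPKM in V1PAKI against 7.48 in Ctrl, NDUFA2 at 25.3 and 8.09, NDUFB10 at 48.9 and 19.6, and the core subunit NDUFS1 at 8.02 and 7.94. The transcripts are short, with a median of 1366 bases against 3359 for all genes. Their later medians were 0.17, -0.39, 0.11 and 0.03. The 13 mitochondrially encoded genes had a median of -0.02, or -0.26 with 11 of 13 below 0 without the trend, and MT-CO1 was at 8483 FPKM in V1PAKI against 8408 in Ctrl. Ribosomal protein genes had a median of 0.27 as deposited and 0.02 without the trend.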
